A study of Mus musculus with 48 samples.

Results

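Cortex and cerebellum were compared in wild-type mice by RNA sequencing, using the 16 libraries that carry a wild-type animal number and either tissue name. These 16 libraries came from 8 animals, each of which gave both tissues, and they are part of a series of 48 libraries from 16 animals. The series compared mice with a deletion of the 7qF3 segment of chromosome 7, which is syntenic to human 16p11.2, with wild-type mice in cortex, striatum and cerebellum. The wild-type animals, which the labels pair with the deletion animals as their controls, carried no other named allele and received no named treatment. They were of a mixed C57BL/6N:129Sv background, and 4 were male and 4 female. Their age is not given, because a date stands in the age field of the labels. All males carry one date and all females another. The replicates are separate animals, and the tissues of an animal were paired by its number.

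The cerebral cortex and the cerebellum are built from different neurons. The excitatory neurons of the cortex are pyramidal cells, accompanied by interneurons born in the ventral forebrain, whereas the cerebellum holds very many small granule cells, the large inhibitory Purkinje cells that carry its output to the deep nuclei, local inhibitory interneurons and a specialised astrocyte, the Bergmann glial cell. The fibres of granule cells synapse on Purkinje dendrites, where cerebellins, delta glutamate receptors, metabotropic glutamate receptors and calcium release from internal stores operate together.

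Library depth ran from 29331296 to 36507597 gene counts, and 22220 to 23742 genes had at least 1 count. The tissue labels matched the marker genes in every library. The mean log2 CPM (read counts scaled to the library total) of 20 cortical identity genes ran from 5.46 to 5.93 in cortex and from 1.94 to 3.17 in cerebellum, and that of the cerebellar identity genes ran from -1.55 to -0.16 in cortex and from 4.31 to 4.88 in cerebellum. Several libraries stood apart in markers of neighbouring tissue. The mean log2 CPM of striatal markers in cortex was 6.52 to 7.08 in animals W805, W806, W815 and W816 and 3.64 to 5.01 in W807, W808, W813 and W814, so lists that share genes with the striatum are given below for both sets of animals. The cortex library of W813 was high in choroid plexus and meningeal markers, and that of W815 in thalamic markers. The cerebellum library of W808 held more cortical transcript than the others. Ddn, a dendritic gene of cortical neurons, was at 41.5 CPM there and at 0.559 to 4.58 CPM in the other 7. The cerebellum library of W807 held the hindbrain gene Hoxb5 at 19.8 CPM, against at most 2.50 CPM in the others, and that of W813 held pituitary Prl at 102 CPM and choroid Ttr at 13300 CPM. The mitochondrial share of counts was 3.68% ± 0.63 in cortex and 2.93% ± 0.46 in cerebellum (SD, n = 8), higher in cortex in 8 of 8 animals (exact paired permutation test, 2-sided, p = 0.00781, adjusted over 15 library measures 0.0195).

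**Figure D1:**
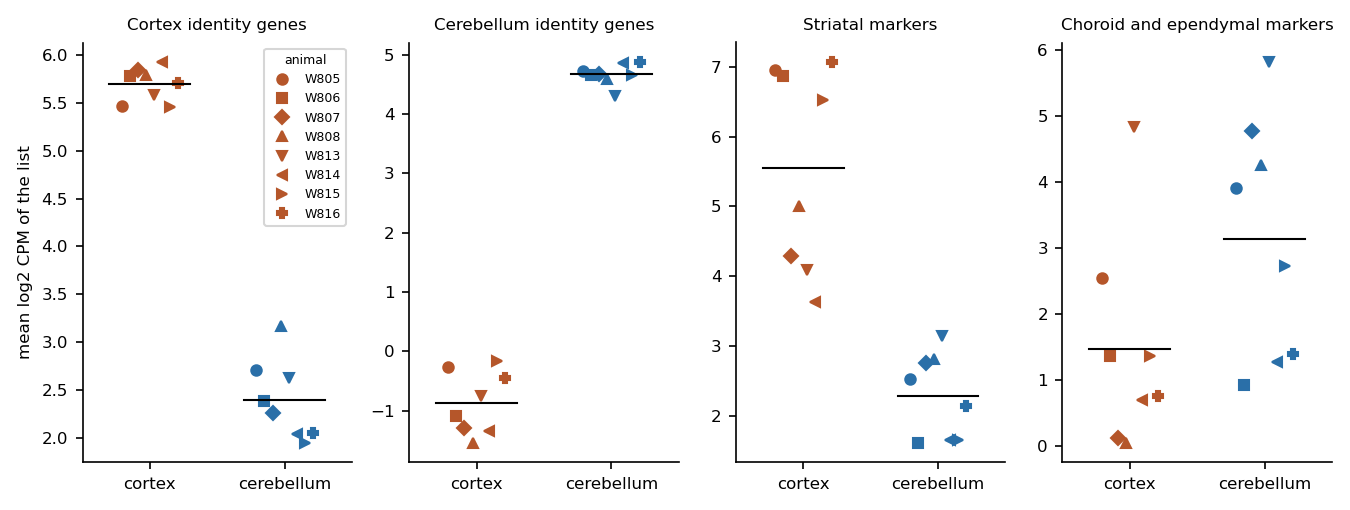
Mean log2 CPM of 4 marker lists in each of the 16 libraries, with 1 symbol per animal and a line at the mean of the 8 libraries of a tissue. The identity lists separate the tissues without overlap, while striatal markers in cortex fall into a set of 4 animals at 6.52 to 7.08 and a set of 4 at 3.64 to 5.01.

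Most expressed genes differed between the tissues, and mostly by less than 2-fold. Of 16863 genes tested, 10468 (62.1%) passed edgeR's quasi-likelihood test at an adjusted p under 0.05 with the animal as a block, 5208 (30.9%) higher in cortex and 5260 (31.2%) higher in cerebellum. The median log2 difference, cortex minus cerebellum throughout, was -0.02. Of the genes called, 6610 had a fitted difference under 2-fold. A test against a 2-fold bound called 2528 genes (15%), with 1570 (9.31%) higher in cortex and 958 (5.68%) higher in cerebellum. Cortex therefore held more of the genes past 2-fold, although the calls of any size were split almost evenly. The 8 libraries of one tissue lay wholly above the 8 of the other for 3893 genes (23.1%). The share past 2-fold was 14.6% of protein-coding genes, 25.5% of long intergenic noncoding RNAs and 25.7% of antisense RNAs. Counts of list members below are to be read against these shares. Values of single genes are CPM, and log2 differences are given with their standard error (SE). In bulk tissue, fewer cells of a type and less RNA per cell cannot be told apart.

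**Figure D2:**
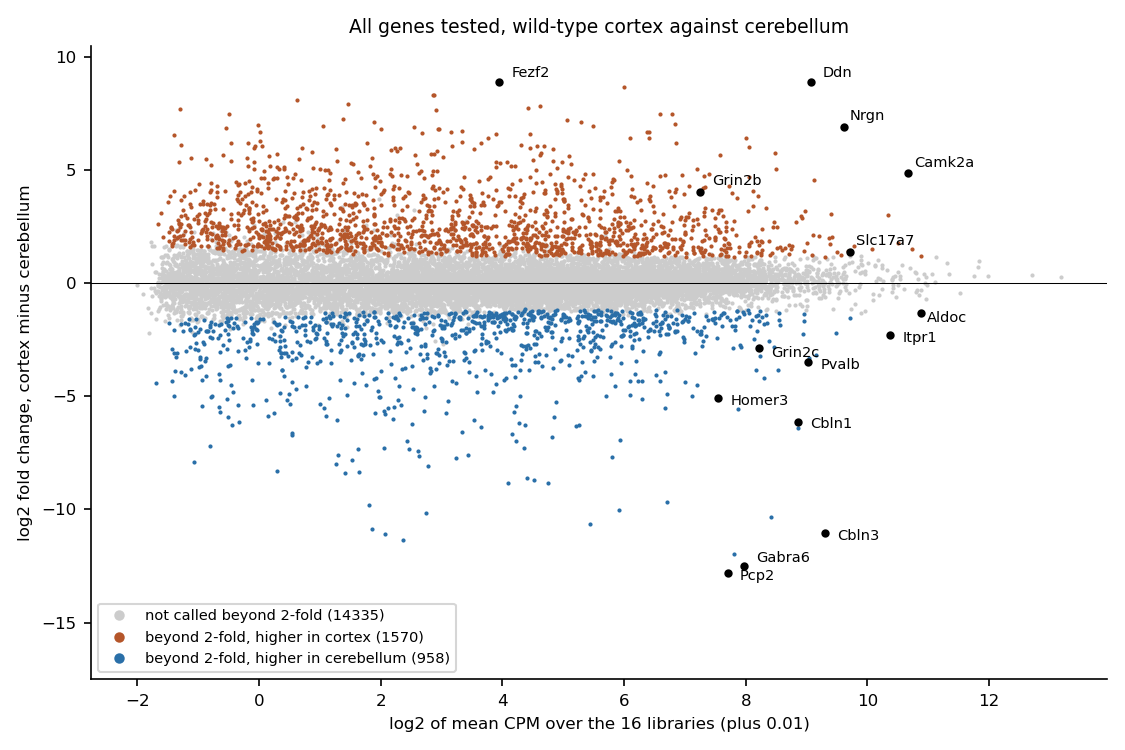
Log2 difference, cortex minus cerebellum, against the log2 of the mean CPM over the 16 libraries for each of 16863 genes, with colour for the 1570 and 958 genes called beyond 2-fold. Named points mark Fezf2 and Ddn at the cortical end and Pcp2, Gabra6 and Cbln3 at the cerebellar end, which extends further from 0.

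The largest differences were toward cerebellum, and several were those of genes known from cerebellar neurons. Pcp2, which encodes a regulator of G protein signalling in Purkinje cells, ran from 0 to 0.129 CPM (median 0.0607) in cortex and from 208 to 627 CPM (median 358) in cerebellum, a log2 difference of -12.80 ± 0.18. Gabra6, the GABA-A receptor subunit of granule cells, ran from 0.0309 to 0.153 CPM (median 0.0623) in cortex and from 202 to 779.7 CPM (median 471) in cerebellum (-12.52 ± 0.17). Every cerebellum library lay far above every cortex library for both genes, and fold changes of this size rest on few cortical counts. Cnpy1 differed by -11.99 ± 0.33, the secreted synaptic organiser Cbln3 by -11.04 ± 0.20, and the D-amino acid oxidase gene Dao by -10.63 ± 0.19. Dao stands on the list of Bergmann glial genes used below. The atypical cadherin Fat2, Crtam and the phosphatase inhibitor Ppp1r17 followed at -10.34 ± 0.53, -10.05 ± 0.29 and -9.67 ± 0.18. The adjusted p of the 6 ran up to 1.07e-07, the value of Fat2.

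The largest cortical excesses were in a transcription factor of deep-layer projection neurons, in dendritic and receptor genes, and in a factor of forebrain interneurons. Fezf2, which specifies subcerebral projection neurons, ran from 14.0 to 45.4 CPM (median 30.4) in cortex and from 0 to 0.269 CPM (median 0.0318) in cerebellum (8.90 ± 0.40). Crym, a thyroid hormone binding protein, ran from 61.3 to 190.3 CPM (median 140.4) in cortex and from 0.0963 to 0.788 CPM (median 0.195) in cerebellum (8.68 ± 0.27). Neither gene overlapped between the tissues. Ddn differed by 8.90 ± 0.71, the muscarinic receptor Chrm1 by 7.46 ± 0.54 and the dendritic adhesion gene Icam5 by 7.46 ± 0.49. Dlx6, a factor of interneurons and of the striatum, differed by 8.32 ± 0.57, the antisense RNA Dlx6os1 by 7.64 ± 0.68 and Gm11549 by 7.73 ± 0.70. Dlx6 and Dlx6os1 followed the striatal signal, at 6.84 and 6.23 in the 4 animals of low and 12.32 and 10.72 in the 4 of high signal, and its part in them was not tested. Fezf2, Ddn, Chrm1, Icam5, Dlx6, Gm11549 and Dlx6os1 each had their highest cerebellar value in W808, the library with cortical transcript.

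The most abundant genes past 2-fold in cortex included those of synaptic kinases and glutamate uptake. The kinase subunit Camk2a was at 3148 ± 449 CPM in cortex and 116 ± 50.5 CPM in cerebellum (mean ± SD, n = 8, here and wherever a CPM value carries an error), and its inhibitor Camk2n1 at 2304 ± 764 CPM in cortex and 272 ± 50.3 CPM in cerebellum. The prohormone processing enzyme Cpe was at 2636 ± 348 CPM in cortex and 1153 ± 209 CPM in cerebellum, and the glutamate transporter Slc1a2 at 2252 ± 337 CPM in cortex and 659 ± 154 CPM in cerebellum. Kif5a, a neuronal kinesin, differed by 1.49 ± 0.10, the synaptic calcium sensor Syt1 by 1.64 ± 0.09, Ncdn by 1.49 ± 0.08, and the calmodulin-binding gene Nrgn by 6.90 ± 0.89. In cerebellum the most abundant were, beside Cbln3, the glycolytic enzyme Aldoc at 1062 ± 128 CPM in cortex and 2716 ± 690.3 CPM in cerebellum, the IP3 receptor Itpr1 at 441 ± 183 CPM in cortex and 2219 ± 1069 CPM in cerebellum, and the sodium pump subunit Atp1b2 at 429 ± 53.0 CPM in cortex and 1248 ± 165 CPM in cerebellum. The matrix gene Sparc differed by -2.22 ± 0.19, the G protein regulator Rgs8 by -3.16 ± 0.09, Nrep by -3.33 ± 0.21 and the calcium buffer Pvalb by -3.49 ± 0.20. Each of these 15 genes differed in the same direction in all 8 animals.

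A further small set was close to all or none. Of the genes tested, 9 were at 1 CPM or more in every cerebellum library and under 0.1 CPM in every cortex library, and 5 showed the reverse; this definition was chosen after the values were seen. The 9 were Sycp1, a protein of meiotic chromosomes, the homeobox and paired-box factors Tlx3, Lbx1 and Pax3, the Purkinje corepressor Skor2, Tssk5, Cabp2, Gm12116 and 2410124H12Rik. Gm12116, Skor2 and Tssk5 had no count in any cortex library and were at least 878-fold, 725-fold and 617-fold higher in cerebellum, taking 3 counts over the 8 cortex libraries as the floor. Tlx3 had 1 cortical count against 1801 (ratio 1790, 95% exact interval 320 to 70600), and Sycp1 had 2 against 3499 (ratio 1730, 480 to 14300), intervals that cover counting error only. Tlx3 (chr11:33200752-33203589, minus strand) and the noncoding Gm12116 (chr11:33204055-33221477, plus strand) lie side by side on GRCm38. The 5 genes of the cortex were Sp9, a factor of forebrain interneurons, the antisense RNAs Dlx1as and Gm29100, Krt73 and A630023P12Rik.

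Transcription factors of cortical identity were mostly higher in cortex, with exceptions. Of 20 tested, 16 were called higher in cortex, 12 of them beyond 2-fold, and 4 higher in cerebellum, or 2 in the animals of low striatal signal, with a median log2 difference of 3.16 against -0.02 over all genes. Tbr1, a factor of deep-layer neurons, ran from 51.9 to 115 CPM (median 90.7) in cortex and from 0.373 to 2.78 CPM (median 0.571) in cerebellum (6.94 ± 0.37), and Emx1, of the dorsal forebrain, ran from 6.98 to 32.0 CPM (median 18.2) in cortex and from 0 to 1.37 CPM (median 0.0479) in cerebellum (6.66 ± 0.52). The 4 called higher in cerebellum were Zbtb18 (-1.14 ± 0.20), Neurod2 (-0.65 ± 0.17), Bhlhe22 (-0.52 ± 0.21) and Cux1 (-0.50 ± 0.08), and their libraries overlapped between the tissues. Bhlhe22 was not called when any of 6 animals (W805, W806, W807, W814, W815 or W816) was left out, with adjusted p up to 0.116 by edgeR. The neurogenic NeuroD factors differed from each other in direction. Per kilobase of exon, Neurod6 was at 27.9 ± 6.58 CPM per kilobase in cortex and 2.22 ± 0.477 in cerebellum, Neurod2 at 23.2 ± 6.74 CPM per kilobase in cortex and 35.7 ± 7.57 in cerebellum and Neurod1 at 2.36 ± 0.589 CPM per kilobase in cortex and 74.0 ± 27.1 in cerebellum. The list median was 3.25 in the 4 animals of low and 3.06 in the 4 of high striatal signal.

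All 21 cerebellar identity factors that were tested, of 25 listed, were called higher in cerebellum beyond 2-fold, with a median of -5.74. Lhx1, a LIM homeobox factor of Purkinje cells, differed by -8.59 ± 0.39, Barhl1, of the granule lineage, by -8.06 ± 0.26, and the engrailed gene En2 by -7.67 ± 0.26. The smallest differences were those of Pax6 (-3.44 ± 0.18), Meis1 (-3.67 ± 0.25) and Zic4 (-3.77 ± 0.34). Pax6 ran from 5.20 to 11.2 CPM (median 6.95) in cortex and from 42.3 to 109.6 CPM (median 87.4) in cerebellum, so that the cerebellar libraries still lay above all cortical ones.

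Markers of cortical pyramidal neurons were higher in cortex for 22 of 26 genes tested, 18 beyond 2-fold, with a median of 2.22, and 3 were higher in cerebellum. In the 4 animals of low striatal signal, 10 were beyond 2-fold higher in cortex and the median was 1.84, and in the 4 of high signal 19 were, with a median of 2.78. Besides Crym and Camk2a, the layer 6 neurotensin receptor Ntsr1 differed by 4.95 ± 0.67. Nxph4 and the ETS factor Etv1, both used as markers of cortical layers, went the other way at -2.23 ± 0.22 and -2.10 ± 0.28, as did the pentraxin Nptx1 at -0.96 ± 0.16. Foxp2, a factor of layer 6 cells and also of Purkinje cells, did not pass the test (0.57 ± 0.33, adjusted p = 0.16 by edgeR), but was called without animal W813 (0.85) and in the animals of high striatal signal (1.29).

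Granule cell markers were higher in cerebellum for 15 of 20 genes, 14 beyond 2-fold, with a median of -2.4. Cbln1, the cerebellin released by granule cell fibres, ran from 5.59 to 47.2 CPM (median 11.2) in cortex and from 563 to 1184 CPM (median 922) in cerebellum (-6.13 ± 0.45). The list also held genes that cortical neurons use. Slc17a7, the vesicular glutamate transporter of both granule and pyramidal cells, ran from 1032 to 1515 CPM (median 1206) in cortex and from 329 to 604 CPM (median 476) in cerebellum and was higher in cortex without overlap (1.37 ± 0.10). Rasgrf1 and the imprinted Snrpn were also called higher in cortex, by 0.58 ± 0.13 and 0.36 ± 0.09, while Sncg (-1.09 ± 0.50) and Kcnk9 (-0.64 ± 0.48) were not called. Snrpn was not called in the females alone (0.14) or in the animals of high striatal signal (0.34). Kcnk9 was called higher in cerebellum in the males alone (-1.66). Sncg was called without W805 or W806, at -1.40 and -1.37, and in the animals of low striatal signal, at -2.14.

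Purkinje cell genes were higher in cerebellum for 23 of 26, 22 beyond 2-fold, and none was higher in cortex, or 1 in the animals of low striatal signal. The median was -2.50, and it ran from -3.14 to -2.31 over the 8 animals. Car8, a carbonic anhydrase-related protein that binds the IP3 receptor, ran from 7.32 to 13.9 CPM (median 10.3) in cortex and from 541 to 1246 CPM (median 914) in cerebellum (-6.42 ± 0.16). Arhgef33, an exchange factor gene, differed by -6.93 ± 0.17. Those not called included the scaffold Shank2 (153 ± 27.2 CPM in cortex and 155 ± 72.7 CPM in cerebellum) and the calmodulin regulator Pcp4 (62.1 ± 19.0 CPM in cortex and 93.9 ± 34.7 CPM in cerebellum). Pcp4 was called higher in cerebellum without W806 (-0.72), in the animals of low striatal signal (-1.12) and by DESeq2 (-0.56). Shank2 differed by 0.11 ± 0.17, but was called higher in cortex in the animals of low striatal signal (0.55). Cortical neurons also express it.

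Promoter sequence of Purkinje and cortical genes is shown here because most members of each group were called in the same direction. Of the Purkinje genes, 23 of 26 were higher in cerebellum. Of the cortical identity genes, 16 of 20 were higher in cortex and 4 in cerebellum. Factors that bind known motifs also act in these cells, the orphan nuclear receptor Rora in Purkinje cells and the NeuroD proteins in cortical neurons. Rora itself was higher in cerebellum, at -2.13 ± 0.15. Windows of 300 bases, from 250 before to 50 after the start of the RefSeq transcript on GRCm38.p6, were searched on both strands for the nuclear receptor motif AGGTCA and the E-box CAGATG, which can overlap by at most 2 bases. Capitals mark these matches. Pcp2 lies at chr8:3625498-3625797 on the minus strand, Homer3 at chr8:70282749-70283048 on the plus strand, and a window of Cux2, a factor of upper cortical layers that differed by 0.76 ± 0.13, at chr5:122047776-122048075 on the minus strand. Pcp2 has further windows, and the one shown holds both motifs. Cux2 has a further window, at chr5:122049802-122050101, which holds neither.
Pcp2: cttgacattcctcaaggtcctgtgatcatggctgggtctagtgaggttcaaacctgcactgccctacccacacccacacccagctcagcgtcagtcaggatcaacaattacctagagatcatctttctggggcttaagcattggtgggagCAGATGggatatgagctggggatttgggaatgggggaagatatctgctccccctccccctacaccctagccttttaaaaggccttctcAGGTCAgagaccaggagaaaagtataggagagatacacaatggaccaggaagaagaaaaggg
Homer3: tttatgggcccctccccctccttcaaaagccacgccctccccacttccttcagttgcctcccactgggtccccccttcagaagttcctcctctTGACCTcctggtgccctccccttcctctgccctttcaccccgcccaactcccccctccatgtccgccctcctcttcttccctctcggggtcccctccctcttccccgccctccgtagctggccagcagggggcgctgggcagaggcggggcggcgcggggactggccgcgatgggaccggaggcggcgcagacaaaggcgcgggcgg
Cux2: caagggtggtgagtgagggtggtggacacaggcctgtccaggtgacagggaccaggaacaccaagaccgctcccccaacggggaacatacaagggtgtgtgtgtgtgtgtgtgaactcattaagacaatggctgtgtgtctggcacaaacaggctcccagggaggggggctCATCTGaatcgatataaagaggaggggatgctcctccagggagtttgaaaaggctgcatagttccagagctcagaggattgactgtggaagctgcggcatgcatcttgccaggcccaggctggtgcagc
Of the 16 Purkinje list genes with such a window, 6 held AGGTCA in at least 1 window (37.5%), against 18.1% of 27025 genes and 18.6% of the genes called beyond 2-fold higher in cerebellum. The 6 were Pcp2, Homer3, Pcp4, Dner, Arhgef33 and Plcb3, of which Pcp4 was not called. Of 17 cortical identity genes, 6 held CAGATG (35.3%), against 19.2% of all genes and 18.6% of those beyond 2-fold higher in cortex. Among these was Neurod2, which was called higher in cerebellum. The groups called beyond 2-fold thus held both motifs at nearly the share of all genes, and a match of letters is only a description. The other shares searched were CAGATG in 6.25% of the Purkinje list genes and AGGTCA in 5.88% of the cortical identity genes. The granule cell list held each motif in 25% of its genes. The pyramidal neuron list held CAGATG in 37.5% and AGGTCA in 12.5%.

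Bergmann glial genes were higher in cerebellum for 11 of 14, 8 beyond 2-fold, with a median of -1.79. Gdf10, a secreted factor of these cells, ran from 3.72 to 9.27 CPM (median 7.38) in cortex and from 93.8 to 234 CPM (median 148) in cerebellum (-4.34 ± 0.21), and A2m and the protease inhibitor Timp4 differed by -4.99 ± 0.42 and -2.60 ± 0.16. Npy1r was the 1 member higher in cortex (3.60 ± 0.30), where neurons express this neuropeptide Y receptor. Gria1 and Lypd6 were not called.

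Inhibitory neurons of the tissues were marked by different genes. Among 12 cerebellar interneuron genes, 6 were higher in cerebellum, led by the glycine transporter Slc6a5 of Golgi cells (-8.70 ± 0.28) and the factor Tfap2b (-6.27 ± 0.31), and 5 were higher in cortex, led by Galntl6 (2.49 ± 0.26). Among 28 forebrain interneuron genes, 20 were higher in cortex, all beyond 2-fold, and 4 were higher in cerebellum, with a median of 3.96. Somatostatin, Sst, ran from 164 to 406 CPM (median 291) in cortex and from 1.08 to 66.6 CPM (median 9.99) in cerebellum (4.73 ± 0.64), and the vasoactive peptide Vip ran from 22.6 to 79.3 CPM (median 52.0) in cortex and from 0.0323 to 4.15 CPM (median 1.40) in cerebellum (5.39 ± 0.67). Prox1, Nos1, Maf and Id2 went the other way at -1.37 ± 0.30, -1.19 ± 0.24, -1.13 ± 0.19 and -0.64 ± 0.07. The median of this list was 3.55 in the animals of low and 5.02 in those of high striatal signal, and the part of striatal tissue in it was not tested. Of 9 core genes of GABA synthesis, storage and uptake, 6 were higher in cerebellum, and of these only the transporter Slc6a12 was beyond 2-fold (-2.35 ± 0.28). In the 4 animals of high striatal signal, 3 were higher in cerebellum and 2 in cortex. The vesicular transporter Slc32a1 differed by -0.52 ± 0.14 and was not called in those animals (-0.20) or in the males alone (-0.38).

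Receptor families split by subunit, with members of 1 family differing in opposite directions. Over all genes 30.9% were called higher in cortex and 31.2% in cerebellum, so calls in both directions are not particular to these families. The NMDA receptor subunit Grin2b ran from 194 to 436 CPM (median 247) in cortex and from 8.61 to 37.9 CPM (median 17.2) in cerebellum (4.02 ± 0.17), and Grin2c ran from 61.7 to 86.2 CPM (median 67.9) in cortex and from 299 to 670.2 CPM (median 551) in cerebellum (-2.85 ± 0.13). Neither overlapped. Per kilobase of exon, Grin2b was at 11.5 ± 3.5 CPM per kilobase in cortex and 0.741 ± 0.347 in cerebellum, Grin2a at 7.48 ± 1.45 CPM per kilobase in cortex and 2.69 ± 1.14 in cerebellum and Grin2c at 14.1 ± 1.85 CPM per kilobase in cortex and 104 ± 25.8 in cerebellum. On this scale Grin2c had the highest mean of these transcripts in cortex as well as in cerebellum. In cortex its mean lay close to that of Grin2b. The obligatory subunit Grin1 differed by only 0.45 ± 0.08, Grin2a by 1.55 ± 0.17, and Grin2d was not called (-0.18 ± 0.13) except without W805 (-0.30) or in the females alone (-0.37). Of 7 NMDA genes, 4 were called higher in cortex and 2 in cerebellum.

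Metabotropic glutamate receptors split likewise. Grm5, which couples to calcium release, ran from 62.5 to 156 CPM (median 72.9) in cortex and from 2.64 to 20.6 CPM (median 6.16) in cerebellum (3.79 ± 0.30). Grm4, the presynaptic receptor of granule cell fibres, differed by -3.82 ± 0.17. Grm2, Grm3, Grm7 and Grm8 were called higher in cortex, by 1.32 ± 0.19, 1.41 ± 0.13, 1.34 ± 0.11 and 0.83 ± 0.15, although Grm8 was not called in the females alone (0.55). Among AMPA, kainate and delta subunits, 6 of 11 were higher in cortex, or 3 with scaling by library totals alone or in the animals of high striatal signal, and 3 in cerebellum. The AMPA subunit Gria4 was higher in cerebellum (-1.89 ± 0.11) and Gria3 in cortex (1.08 ± 0.12), while Gria1, at 397 ± 103 CPM in cortex and 443 ± 102 CPM in cerebellum, was not called. The delta receptor Grid1 was higher in cortex (1.04 ± 0.08). All 19 auxiliary subunits of these channels were called, 11 higher in cortex and 8 in cerebellum. Cacng3 and Shisa7 were higher in cortex (3.73 ± 0.11 and 3.43 ± 0.11), and Shisa6 and Shisa8 were higher in cerebellum (-2.88 ± 0.32 and -3.82 ± 0.25).

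Of 17 GABA-A and GABA-B receptor genes tested, 8 were higher in cortex, 4 in cerebellum and 5 were not called. Gabra5, Gabra3 and Gabra4 were higher in cortex by 4.16 ± 0.48, 2.72 ± 0.21 and 1.99 ± 0.09, and the extrasynaptic subunit Gabrd was higher in cerebellum, at -1.33 ± 0.08. Neighbouring genes differed greatly. On chromosome 11 of GRCm38, Gabra6 (chr11:42306437-42321072) lies near Gabrb2 (chr11:42419757-42629028). Gabra6 differed by -12.52 ± 0.17 and Gabrb2 by -0.83 ± 0.35, and Gabrb2 was not called. Gabrb2 was called without W814 or W816, at -1.03 and -0.99, and by DESeq2, at -0.81.

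**Figure D3:**
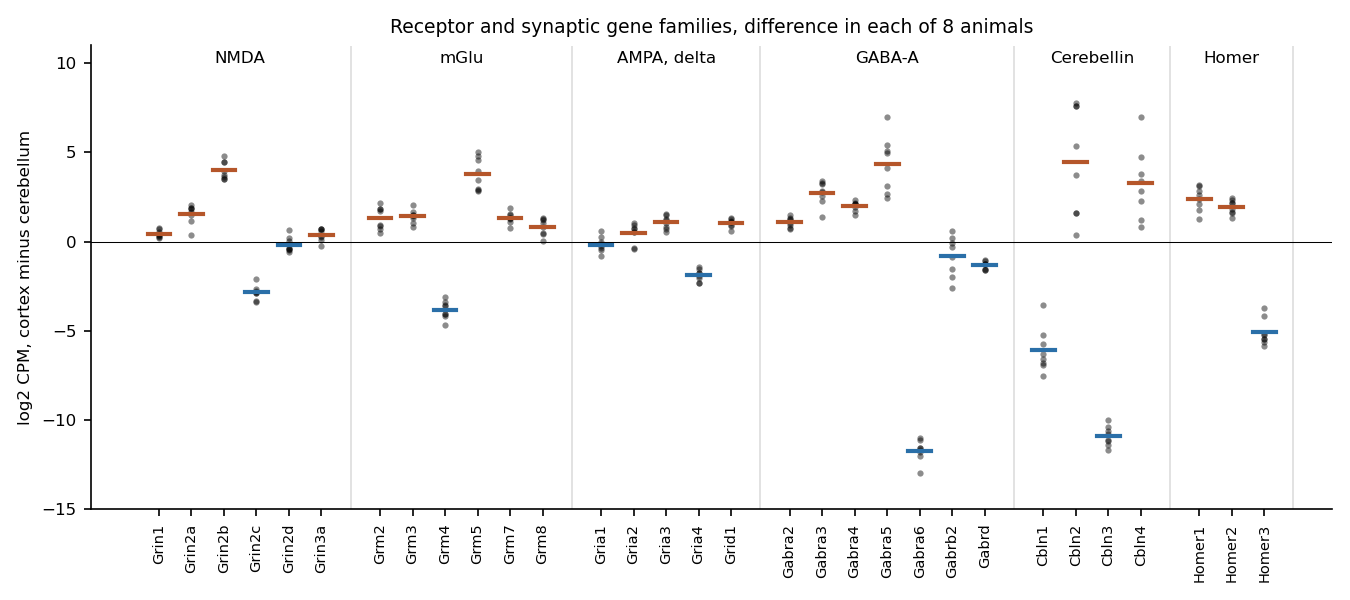
Difference in log2 CPM, cortex minus cerebellum, for selected members of 6 receptor and synaptic families, with 1 point per animal (n = 8) and a line at their mean, coloured for its sign. Each family holds members on both sides of 0, such as Grin2b above and Grin2c below.

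Secreted and membrane organisers of synapses showed the same division of families. Cbln1 and Cbln3 were higher in cerebellum and Cbln2 and Cbln4 in cortex (4.0 ± 0.97 and 3.0 ± 0.57). Cbln2 ran from 19.1 to 88.9 CPM (median 49.2) in cortex and from 0.186 to 17.7 CPM (median 3.64) in cerebellum, and in the 4 animals of low striatal signal it was not called (2.81, adjusted p = 0.0985 by edgeR). Of the 30 cerebellin, neurexin and related genes tested, 22 were higher in cortex, 12 beyond 2-fold, and 4 in cerebellum. Lrfn2 and Lrrtm1, postsynaptic leucine-rich repeat proteins, differed by 3.83 ± 0.34 and 2.85 ± 0.11, while Nrxn2 and Adgrb3 were not called. Postsynaptic scaffolds were higher in cortex for 13 of 19 and in cerebellum for 2. Homer1 ran from 49.0 to 166 CPM (median 109.5) in cortex and from 14.3 to 41.7 CPM (median 18.5) in cerebellum (2.41 ± 0.21), and Homer3 ran from 6.99 to 18.7 CPM (median 9.20) in cortex and from 248 to 465.6 CPM (median 366) in cerebellum (-5.10 ± 0.26). Kalrn, an exchange factor of dendritic spines, differed by 3.74 ± 0.20 and Dlgap2 by 5.18 ± 0.38, while Shank3 (188 ± 31.2 CPM in cortex and 189 ± 55.9 CPM in cerebellum) and Iqsec1 were not called. Of 28 kinase and plasticity genes, 19 were higher in cortex, among them Camkv (5.73 ± 0.44), and 4 in cerebellum, among them Camk4 (-1.17 ± 0.16).

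Glutamate transporters also differed in direction. Slc1a6, the transporter of Purkinje cells, ran from 9.49 to 16.9 CPM (median 11.3) in cortex and from 189 to 419 CPM (median 268) in cerebellum (-4.49 ± 0.16). Of the 2 astrocytic transporters, Slc1a2 was higher in cortex (1.79 ± 0.10) and Slc1a3 in cerebellum (-1.16 ± 0.11), with no overlap for either. Per kilobase, Slc1a2 was at 171 ± 25.6 CPM per kilobase in cortex and 50.2 ± 11.7 in cerebellum and Slc1a3 at 60.3 ± 6.90 CPM per kilobase in cortex and 138 ± 34.5 in cerebellum.

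Of 51 potassium channel genes, 27 were higher in cortex, 21 beyond 2-fold, and 15 in cerebellum, 6 beyond 2-fold. Kcnv1, Kcnj4, Kcnf1 and Kcnh3 were all far lower in cerebellum, with differences of 7.20 ± 0.58, 6.69 ± 0.42, 6.43 ± 0.34 and 6.18 ± 0.33. The silent subunit Kcng4 was higher in cerebellum and differed by -4.35 ± 0.24. Among 28 sodium, calcium and HCN channel genes, 11 were higher in cortex and 8 in cerebellum, or 13 and 4 in the animals of low striatal signal. The sodium channel subunit Scn3b differed by 4.44 ± 0.28 and the T-type calcium channel Cacna1h by 3.79 ± 0.26, while its paralogue Cacna1g and the P-type channel Cacna1a were higher in cerebellum (-1.53 ± 0.13 and -1.30 ± 0.14). Scn8a, at 370.0 ± 34.8 CPM in cortex and 343 ± 50.6 CPM in cerebellum, and Scn2a were not called, although Scn8a was called higher in cortex in the animals of low striatal signal (0.25).

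Genes of calcium stores and buffers were called in equal number, 11 higher in each tissue of 27 tested. Hpcal4 ran from 879 to 1243 CPM (median 1098) in cortex and from 31.4 to 80.2 CPM (median 43.9) in cerebellum (4.54 ± 0.13), and its relative Hpca differed by 2.86 ± 0.16. In cerebellum, the store pump Atp2a3 ran from 5.82 to 11 CPM (median 8.75) in cortex and from 152 to 350.4 CPM (median 272) in cerebellum (-4.97 ± 0.15), and the granule cell buffer Calb2 and the IP3 receptor Itpr1 differed by -4.18 ± 0.32 and -2.30 ± 0.13. The plasma membrane pump Atp2b2 and the ryanodine receptor Ryr2 were not called (-0.04 ± 0.11 and 0.13 ± 0.18). Ryr2 was called higher in cortex in the females alone (0.51) and in the animals of low striatal signal (0.47).

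Neuropeptides and their receptors were higher in cortex for 28 of 33 genes, 21 beyond 2-fold, and in cerebellum for 3. Prodynorphin, Pdyn, differed by 5.93 ± 0.71, and Tac2 by 5.28 ± 0.35. The corticotropin-releasing hormone receptor Crhr1 was higher in cerebellum, where it ran from 89.1 to 136 CPM against 25 to 69.3 CPM in cortex (-1.55 ± 0.15). Of 34 receptors and enzymes of monoamines and acetylcholine, 26 were higher in cortex, 20 beyond 2-fold, and 4 in cerebellum. In the females alone, 13 were beyond 2-fold. Chrm4 and Htr3a differed by 4.70 ± 0.27 and 4.90 ± 0.41, and Chrnb2 was higher in cerebellum (-0.78 ± 0.09). The dopamine receptor Drd1, which is abundant in striatum, was at 9.10 to 20.4 CPM in the cortex of the 4 animals of low striatal signal and at 52.0 to 96.0 CPM in the other 4. The medians of these lists were 2.4 and 1.69 in the animals of low, and 3.31 and 2.68 in those of high striatal signal. The part of striatal tissue in either list was not tested. Among 31 endocannabinoid, phosphodiesterase and RGS genes, 21 were higher in cortex and 6 in cerebellum. Rgs14 and Pde1a differed by 7.10 ± 0.41 and 4.75 ± 0.29, and Rgs8 and Pde5a by -3.16 ± 0.09 and -2.83 ± 0.16.

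Immediate-early genes, which neurons switch on with activity, were higher in cortex for 18 of 24, 13 beyond 2-fold, with a median of 1.98. Egr3 ran from 4.63 to 30.6 CPM (median 18.2) in cortex and from 0.0292 to 1.01 CPM (median 0.204) in cerebellum (6.07 ± 0.56), and Fosb and the pentraxin Nptx2 differed by 3.76 ± 0.44 and 4.29 ± 0.33. Not all members followed. The phosphatase Dusp5 ran from 9.39 to 26.8 CPM (median 18.2) in cortex and from 86.7 to 221 CPM (median 125) in cerebellum and was higher in cerebellum (-3.02 ± 0.19), Ier2 was also higher there (-0.77 ± 0.15), and Fos, Jun and Dusp1 were not called (0.38 ± 0.20, -0.16 ± 0.15 and -0.16 ± 0.14), although Fos was without animal W813 (0.51). The cortex of W813 held the lowest Egr3, 1 of several cortical genes at their lowest there.

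Glial genes differed by cell type. Microglial genes were higher in cortex for 18 of 20, 16 beyond 2-fold, and none was higher in cerebellum, with a median of 1.69. Siglech ran from 15.4 to 20.1 CPM (median 18.9) in cortex and from 2.85 to 6.39 CPM (median 4.41) in cerebellum (2.06 ± 0.15), and Aif1 and Itgam differed by 2.08 ± 0.21 and 2.07 ± 0.17. The 2 not called, Mrc1 and Pf4, are markers of macrophages at the brain's borders, at 3.05 ± 1.0 CPM in cortex and 3.18 ± 1.20 CPM in cerebellum and 0.909 ± 0.550 CPM in cortex and 0.946 ± 0.637 CPM in cerebellum. In the 4 animals of low striatal signal 18 were called and 9 beyond 2-fold, and in the 4 of high signal 18 and 18. Astrocyte genes were higher in cerebellum for 16 of 24 and in cortex for 5. Aqp4, the water channel of astrocyte endfeet, ran from 38.7 to 112 CPM (median 53.5) in cortex and from 114 to 387 CPM (median 173) in cerebellum (-1.65 ± 0.11), and S100b and Agt differed by -1.84 ± 0.13 and -2.78 ± 0.38, while Mfge8 was higher in cortex (1.67 ± 0.08) and Gfap and Aldh1l1 were not called. Aldh1l1 was called higher in cerebellum without W806 (-0.23), in the females alone (-0.41) and with scaling by library totals (-0.26).

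Oligodendrocyte genes were called in only 6 of 23 cases, 2 higher in cortex and 4 in cerebellum, none beyond 2-fold. The split depended on the animals used. It was 2 and 2 without W807 or W813 and 3 and 2 without W808, and it was 0 and 5 in the animals of low and 4 and 2 in those of high striatal signal. The myelin gene Mbp ran from 839.8 to 3619.9 CPM (median 2603) in cortex and from 1084 to 7274 CPM (median 2978) in cerebellum and was not called (-0.44 ± 0.36). The list median varied by animal from -2.32 to 1.34, and it was -1.06 in the animals of low and 0.06 in those of high striatal signal. Precursor genes were higher in cortex for 8 of 12, or 5 in the animals of low striatal signal, among them the receptor Pdgfra (1.14 ± 0.14) and Gpr17 (1.24 ± 0.10). Endothelial and mural genes were called in 3 of 22 cases, and the tight junction gene Cldn5 differed by 0.09 ± 0.11.

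Meningeal, choroid and blood genes were called only toward cerebellum apart from 1. Of 15 meningeal genes, 11 were higher in cerebellum, for example Col1a2 (-1.43 ± 0.21), none beyond 2-fold, and 4 were called in the females alone. Of 16 choroid and ependymal genes, 6 were, or 2 in the animals of high striatal signal, and the transthyretin gene Ttr ran from 7.74 to 6304 CPM (median 28.8) in cortex and from 9.96 to 13297 CPM (median 891) in cerebellum and was not called (-2.4 ± 1.27). DESeq2 called Ttr higher in cerebellum (-2.39). Of 7 blood genes, 6 were higher in cerebellum and 1 in cortex; the globin genes Hbb-bs and Hba-a1 were higher in cerebellum, at -0.42 ± 0.14 and -0.40 ± 0.14. Hbb-bs was not called when W813, W814 or W815 was left out (adjusted p up to 0.0570 by edgeR), and Hba-a1 when any of these or W816 was (up to 0.0658). In the males alone 1 of the 7 blood genes was called higher in cerebellum, against 6 in all animals. How much tissue of each kind was dissected with the samples was not tested.

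**Figure D4:**
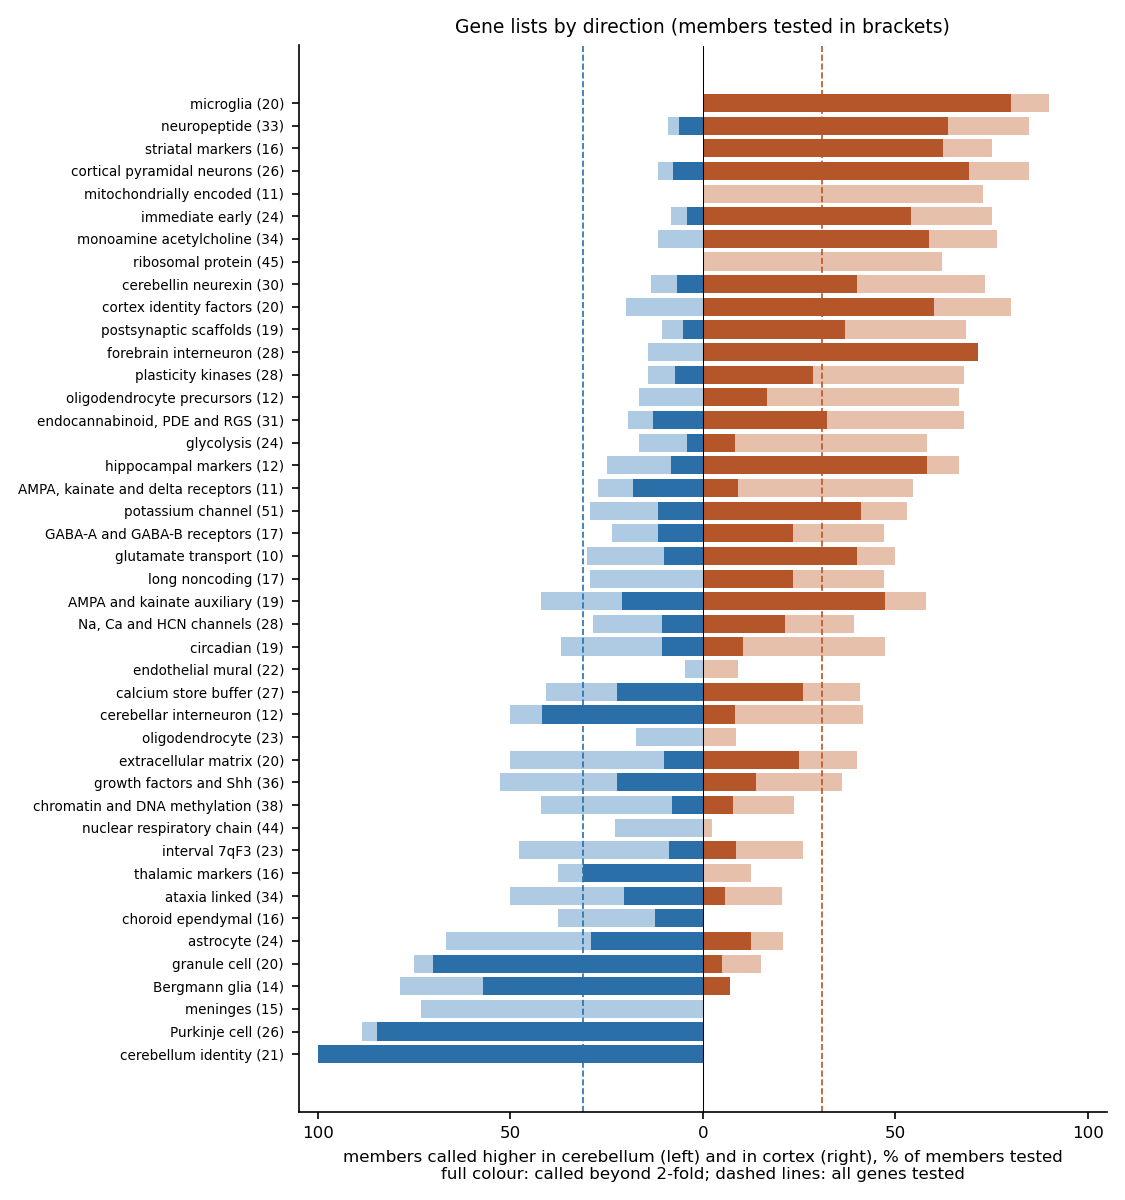
Share of tested members called higher in cortex (right) and in cerebellum (left) for each gene list with at least 10 members tested, with the share beyond 2-fold in full colour and dashed lines at the 30.9% and 31.2% of all genes. Microglial and neuropeptide lists extend furthest right, and Purkinje and cerebellar identity lists furthest left.

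Growth factor and Sonic hedgehog genes were higher in cerebellum for 19 of 36, 8 beyond 2-fold, and in cortex for 13. Without animal W807, 5 were beyond 2-fold higher in cerebellum. The hedgehog target Gli1 ran from 1.51 to 5.50 CPM (median 3.30) in cortex and from 15.9 to 28.0 CPM (median 21.8) in cerebellum (-2.69 ± 0.22), and the coreceptor Boc differed by -2.06 ± 0.17. Wnt7a and Wnt7b, secreted paralogues, went in opposite directions at -2.18 ± 0.16 and 2.29 ± 0.11. Of 20 extracellular matrix genes, 8 were higher in cortex, led by the neurocan gene Ncan (3.11 ± 0.13), and 10 in cerebellum, led by Tnc (-1.93 ± 0.26) and followed by Reln (-1.47 ± 0.20). Aggrecan, Acan, was not called (0.31 ± 0.37).

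Genes linked to ataxia in patients were higher in cerebellum for 17 of 34, 7 beyond 2-fold, and in cortex for 7, or 4 in the animals of high striatal signal. Those higher in cerebellum included Itpr1 and Car8, which other lists here also hold. Pdyn, Ppp2r2b and Atxn1 were higher in cortex (5.93 ± 0.71, 1.62 ± 0.11 and 1.09 ± 0.11), and Stub1 was not called (170.0 ± 43.0 CPM in cortex and 172 ± 45.5 CPM in cerebellum). Chromatin genes were higher in cerebellum for 16 of 38 and in cortex for 9, or 4 with scaling by library totals alone. The remodeller Chd7 ran from 6.48 to 16.3 CPM (median 12.4) in cortex and from 83.5 to 293 CPM (median 187) in cerebellum (-3.92 ± 0.21), while its relatives Chd5 and Chd3 were higher in cortex (2.51 ± 0.16 and 1.59 ± 0.09). The core subunits Smarca2 and Smarca4 were not called (0.00 ± 0.09 and -0.03 ± 0.06).

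Of the 23 genes tested in the 7qF3 interval, which is intact in these animals, 6 were higher in cortex, 11 in cerebellum and 6 were not called. In the females alone 3 were called higher in cortex. Doc2a, a calcium sensor of synaptic vesicles, ran from 32.8 to 84.8 CPM (median 56.9) in cortex and from 0.318 to 12.8 CPM (median 1.86) in cerebellum (4.38 ± 0.53). Kctd13 and Mapk3 were higher in cortex by 1.26 ± 0.09 and 0.59 ± 0.13, and the vault protein Mvp and the enzyme Qprt were higher in cerebellum, at -1.71 ± 0.12 and -2.06 ± 0.28. The kinase Taok2, at 151 ± 7.5 CPM in cortex and 147 ± 16.4 CPM in cerebellum, was not called (0.04 ± 0.06, adjusted p = 0.594 by edgeR).

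Housekeeping groups differed by less. Ribosomal protein genes were higher in cortex for 28 of 45 and none was higher in cerebellum, none beyond 2-fold, with a median of 0.33. The sexes gave other counts, a difference that was not tested. In the males alone 40 were called higher in cortex and 0 in cerebellum, and in the females alone 11 and 4. The counts were 14 and 0 in the animals of low and likewise in those of high striatal signal, and 17 and 1 with scaling by library totals alone. Nuclear genes of the respiratory chain were called in 11 of 44 cases, 10 of them higher in cerebellum, or 1 in the animals of high striatal signal and 16 with scaling by library totals alone. In the males alone 12 were called higher in cortex and 1 in cerebellum, and in the females alone 38 were called higher in cerebellum, a difference that was not tested. The length score described below separated the sexes too, and its part in these counts was not tested. Mitochondrially encoded genes were higher in cortex for 8 of 11 (median 0.33), in the animals of low striatal signal for 1, and without animal W808 for 3. Among 24 glycolytic genes, 14 were higher in cortex, or 8 in the females alone and 7 in the animals of high striatal signal, with Ldha at 1.25 ± 0.09, and 4 in cerebellum, with Aldoc at -1.32 ± 0.12 and the dehydrogenase kinase Pdk2 at -1.12 ± 0.09; its paralogue Pdk1 was higher in cortex (1.09 ± 0.07). Circadian genes also split. Npas2 ran from 37.3 to 50.5 CPM (median 49.2) in cortex and from 4.10 to 7.19 CPM (median 4.77) in cerebellum (3.21 ± 0.11), Cry1 was higher in cerebellum (-1.36 ± 0.07), Per1 in cortex (0.58 ± 0.07), and Nr1d1, Dbp and Per3 were not called. Dbp was called higher in cortex without W814 or W815, at 0.35 and 0.36, and in the males alone, at 0.62. Of 17 genes listed as long noncoding, 8 were higher in cortex, among them Miat (3.85 ± 0.36) and Pantr1 (2.43 ± 0.17), and 5 in cerebellum, among them Malat1 (-0.62 ± 0.21), which was not called without W808 or W814 (adjusted p up to 0.0620 by edgeR); Ptprd, which stands on that list, encodes a protein and was not called except without W805 (0.29) or in the females alone (0.45). The count higher in cerebellum was 3 in the animals of low and in those of high striatal signal, and 1 in the females alone.

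The same comparison was made in the 8 deletion animals, which share no library with the wild-type animals and carry the 7qF3 deletion. There, 9513 of 16874 genes (56.4%) were called, 28.1% higher in cortex and 28.2% higher in cerebellum. Of the wild-type calls, 4242 of 5208 higher in cortex and 4118 of 5260 higher in cerebellum were called in the same direction, and 0 in the opposite one. Beyond 2-fold, 1527 of 1570 and 921 of 958 were called in the same direction. Grin2b differed by 3.99 in deletion animals, Grin2c by -2.53, Gabra6 by -12.56 and Fezf2 by 9.10.

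Whether the tissue difference depended on sex was asked with an interaction term, male minus female. It called 810 genes (4.8%), of which 604 were positive and 206 negative. The transcript length of these genes and a length measure of the libraries moved with it. The length score, the mean log2 CPM of the longest 20% of protein-coding genes minus that of the shortest 20%, differed between the tissues by -0.37 ± 0.34 in males and 0.21 ± 0.05 in females (cortex minus cerebellum, SD, n = 4 per sex, exact permutation test, 2-sided, p = 0.0286, the smallest that 4 against 4 allow). The median exon length was 1973 bases for the positive genes, 8133 for the negative and 4105 for all tested. With the length score as a covariate, edgeR called 1 gene, Calml4, which was not among the 810. The tissue difference of that score ran from -0.713 to 0.00097 in males and from 0.16 to 0.278 in females. Because the sexes do not overlap in it, this fit cannot tell the score from sex, and the fall in calls assigns them to neither. DESeq2 called 2099 genes in the same test without the covariate. Sex also cannot be told apart from the date in the labels.

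The 4 genes of smallest p in this test were chosen for their difference between the sexes, so their separation by sex follows from that choice. Rex1bd differed between the tissues by 0.51 in males and -0.34 in females, Tpgs1 by 0.72 and -0.26, and Znhit2 by 0.89 and 0.12. The zinc finger gene Zfp445 differed by -1.42 and 0.39. The 4 male values did not overlap the 4 female values for any of them, nor did those of the length score. With the length score as a covariate, none of the 4 was called, in a fit that cannot tell that score from sex.

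**Figure D5:**
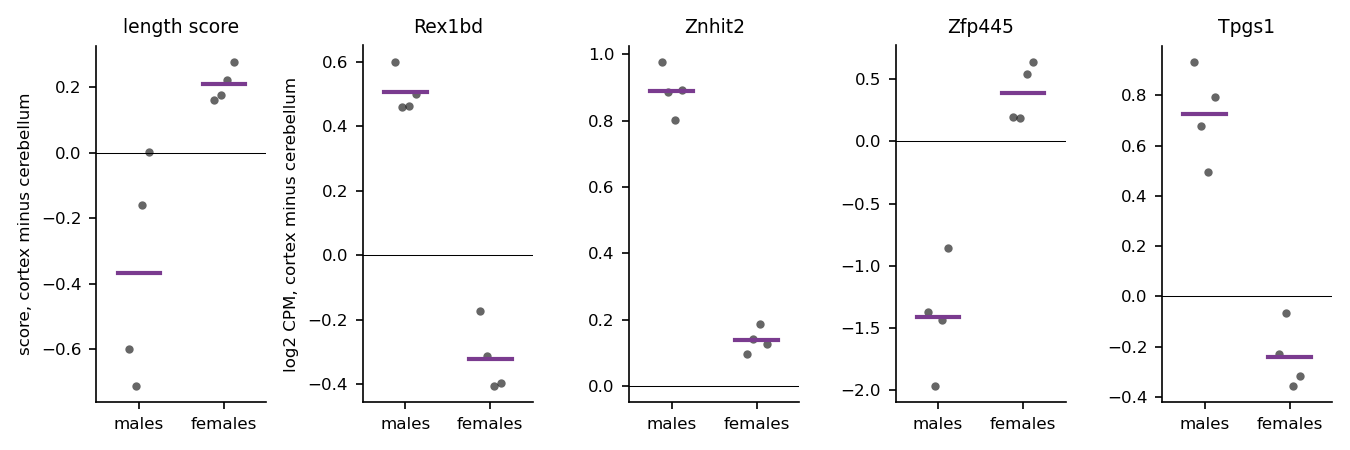
Difference between cortex and cerebellum in each animal, as a score for gene length (left) and as log2 CPM for the 4 genes of smallest interaction p, for 4 males and 4 females with a line at the mean. The sexes separate in every panel, which for the 4 genes follows from their choice by this test. The length score averages -0.37 in males and 0.21 in females.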

How the data were processed

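RNA from cortex and cerebellum of 8 wild-type mice was sequenced from stranded, poly(A)-selected libraries on an Illumina HiSeq instrument, per the labels' protocols. The deposited gene table holds raw read counts for 47161 features, of which 92 ERCC spike-in controls were dropped. STAR 2.4.2a, FastQC 0.10.1, Picard, SAMtools and the builds GRCm38 and mm8 are named in the submitters' processing notes, and the counting step is not given in the sources used here. Gene names came from GENCODE vM21 for 46488 identifiers, and promoter sequences from RefSeq. The unmatched 581 held 0.109% of the counts. ERCC reads were 0.219% to 0.860% of the counts of a library.

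Counts were tested with edgeR 4.0.16 (quasi-likelihood, R 4.3.3, limma 3.58.1), with TMM scaling, genes of low count removed by edgeR's filter for each tissue, and the animal as a block, since each number names 1 animal. Same-animal libraries deviated together in every pair (lowest correlation 0.108, median 0.436), although only 6 of 8 animals matched their own library best. P-values were adjusted over all genes tested by Benjamini-Hochberg at 0.05, and calls beyond 2-fold tested against a log2 bound of 1. On simulated counts for 16466 genes, 158 of 200 changed genes and 9 unchanged ones were called. The simulation changed only these 200 and drew libraries independently, without animal effects or neighbouring tissue. It therefore gives no error rate for the calls in the data. Levels are CPM on TMM-scaled totals; log2 CPM uses a prior count of 2. Intervals cover counting error only.

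Named genes were the 10 of largest difference each way (at least 10 CPM, same sign in all animals), the 8 most abundant each way beyond 2-fold, up to 4 members each way and 3 uncalled members of each list with their paralogues, and the 4 of smallest interaction p. Lists and comparisons were chosen with earlier results of these data known. Alternatives were no block, RLE scaling, library totals, no filter, DESeq2 1.42.0, single sexes, 4 animals of low striatal signal, and leaving out each animal. The length covariate and the 4 animals of high striatal signal were added after seeing the data. Some genes that this rule names are not reported here.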

Additional observations from a re-analysis of the deposited data

Results flagged for a closer look

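Of 488 groups of 8 libraries examined for a single library far from the others, 31 held one, against about 1 in 20 by chance. The distance was judged by Dixon's criterion, and the values of single genes here are log2 CPM. In the cerebellum of W813 the 50 most abundant genes took 13.3% of counts. The mean log2 CPM of thalamic markers was 5.14 in the cortex of W815, and that of meningeal markers was 4.92 in the cortex of W813. W808 cerebellum was far above the other libraries for Dlx1as (-3.04), Dlx6os1 (-0.54), Gm11549 (1.18), Hpcal4 (6.33), Kcnh3 (3.98), Rgs14 (1.85) and Tbr1 (1.5). W813 cortex was far below the other libraries for Egr3 (2.23), Homer1 (5.62), Kcnv1 (4.67), Npas2 (5.22) and Pdyn (4.46). W805 cerebellum was far below the other libraries for Dbp (5.33) and Slc32a1 (6.57). W806 cerebellum was far above the other libraries for Grin1 (9.04) and Tnc (5.92). W816 cortex was far above the other libraries for Malat1 (9.89) and Ppp1r17 (-0.80). W815 cortex was far above the other libraries for Tlx3 (-3.44) and Zic4 (4.13). W805 cortex was far above the other libraries for Atp1b2 (9.09). W806 cortex was far above the other libraries for Dao (-2.15). W813 cerebellum was far below the other libraries for En2 (5.83). W808 cortex was far above the other libraries for Grin1 (9.51). W815 cortex was far below the other libraries for Npy1r (4.25). W805 cerebellum was far above the other libraries for Ptprd (8.15). W806 cerebellum was far below the other libraries for Rasgrf1 (7.05). W807 cortex was far above the other libraries for Sycp1 (-3.05). The values of Tlx3, Sycp1 and Dlx1as rest on 1, 2 and 2 counts over the 8 libraries of that tissue, so nothing can be read from them. That of Dao rests on 13 counts over the 8 cortex libraries, with at most 0.163 CPM in any, and is close to the floor.

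Of 229 genes examined, 11 had a tissue difference that differed between the sexes by the interaction test. This is about the same share as the 4.8% of all genes tested, so the count does not set the examined genes apart. Rex1bd, Tpgs1, Zfp445 and Znhit2 were named because of their small p in this test, so they are among the 11 by that choice. Values are male minus female on the log2 scale. The 11 were Dbp (0.71), Gabrb2 (-1.90), Hba-a1 (0.70), Hbb-bs (0.71), Kctd13 (0.42), Prox1 (-1.60), Rex1bd (0.83), Stub1 (0.47), Tpgs1 (0.97), Zfp445 (-1.82) and Znhit2 (0.75). With the length score as a covariate, none of the 11 was called, but that fit cannot tell the score from sex. Sex also cannot be told apart from the date in the labels.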

How the results depend on the processing

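The counts of genes called stayed within 1.5 times the reported values under every alternative. Across the animals left out in turn, 9738 to 10395 genes were called and 2371 to 2744 beyond 2-fold. Without the pairing of libraries by animal, 8573 and 2271 were called; of the named genes, Hba-a1, Hbb-bs, Ier2, Malat1 and Znhit2 then lost their call. DESeq2 called 10786 and 2151. The 4 animals of low striatal signal gave 8243 and 1853, males alone 9346 and 2274, and females alone 8710 and 1815. Scaling by library totals alone moved the median log2 difference by -0.10 and the share of calls higher in cortex from 49.8% to 40.7% (4397 against 6400). For sex by tissue, 810 genes became 2099 with DESeq2 and 1 with the length score as a covariate; the cause was not tested. In females alone, Cldn5 (-0.20), Rex1bd (-0.34), Tpgs1 (-0.26) and Zfp445 (0.39) took the opposite sign, as did Stub1 in males alone (0.23) and Lypd6 in the animals of low striatal signal (0.28). In the same animals, Bhlhe22, Cbln2, Mapk3, Neurod2 and Prox1 were not called. At these depths, genes with few counts in 1 tissue have folds that rest on those counts.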
